A study of Mus musculus with 7 samples.

Results

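The arrays of days 5 and 7 of reloading were set against the arrays of days 1 and 3 in the plantaris of the mouse, a muscle of the calf in which fast fibres predominate. The 4 arrays compared are those whose labels give day 1, 3, 5 or 7, out of 7 arrays in all, and the days alone chose them. All mice were male C57BL/6J aged 5 months, with no other genotype or drug named in the labels. Every group had first spent 2 weeks in hind limb suspension, which takes the weight off the hind limbs, and then walked normally for the stated number of days. The other 3 arrays are the end of suspension (day 0, the control of the series) and days 10 and 14. Each day is 1 array carrying RNA pooled from the left plantaris of 6 animals. A side of the comparison is therefore 2 arrays of different days, with no replicate of any day, and animals cannot be told apart within a pool.

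Returning load to an unloaded muscle stretches its sarcomeres, and proteins of the Z-disc and of the attachments between fibre and matrix sense that strain and hold the fibre together. Heat shock proteins fold and refold contractile proteins under such strain, and macrophages enter muscle that is injured or remodelling. Mitochondrial enzymes set how far fibres can rely on fat and oxygen for fuel, and their genes are known to respond to how much a muscle is used.

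Values are normalized intensities on a linear scale, and a difference is the mean log2 intensity of days 5 and 7 minus that of days 1 and 3. A gene was said to lie apart when both arrays of one side were beyond both arrays of the other. The 7 arrays had median intensities of 128.1 to 131.8, and 11430 of 19938 genes passed the filter on low values (a mean over the 4 arrays of at least 130.1, the median of all probe sets). The tissue label matched its markers: all 12 fibre genes on the list, which includes Ckm and Acta1, passed the filter. Their summed intensity was 181315 to 182878 on days 1 and 3 and 183435 to 186147 on days 5 and 7.

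Few genes differed by a large factor, and most of those were lower on days 5 and 7. In all, 46 genes lay apart and were at least 1.5-fold lower (0.402% of the genes tested), and 10 were at least 1.5-fold higher (0.0875%). The 46 include 5 Z-disc genes and 5 heat shock genes, and the 10 include Actc1, the collagen gene Col1a1 and the tendon gene Kera. At any size, 2175 genes lay apart and lower (19%) and 1320 lay apart and higher (11.5%). That split depended on scaling. It was 1821 lower (15.9%) and 2405 higher (21.0%) after quantile normalization, and 1309 lower (11.5%) and 3291 higher (28.8%) with equal array medians. List counts under another scaling are to be read against these shares. At 1.5-fold it was 41 lower and 15 higher, then 37 lower and 16 higher. Over all genes tested the median difference was -0.02, and equal array medians moved it to 0.03.

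In limma, fitted over all genes tested, 0 genes were called in either direction (0% of the genes tested), and the smallest adjusted p was 0.746. Each of the 56 genes that were 1.5-fold apart had that adjusted p. At an unadjusted p under 0.05 the same fit held 214 higher genes (1.87%) and 230 lower genes (2.01%), together 3.88% of those tested, and limma was the only tool used. The error in this fit is the difference between the days of a side, so a course that continues within a side counts as error. For a single gene the smallest two-sided exact permutation p that 2 arrays against 2 allow is 0.333. What follows is therefore a description of 4 arrays, with the limma standard error (SE, n = 2 arrays a side) beside each main difference.

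**Figure D1:**
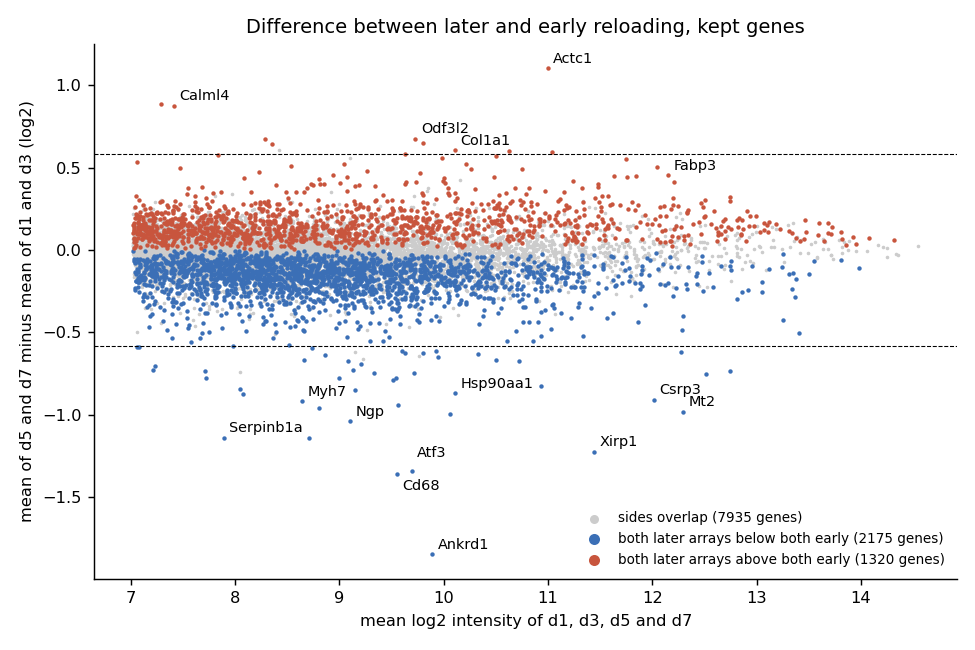
Each point is 1 of the 11430 genes, with its mean log2 intensity over days 1, 3, 5 and 7 on the horizontal axis and its log2 difference (days 5 and 7 minus days 1 and 3) on the vertical axis; dashed lines mark 1.5-fold. Of the coloured points, 46 lie below the lower line and 10 above the upper line, with Ankrd1 the lowest at -1.85 and Actc1 the highest at 1.10.

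Genes that sense or bear mechanical load were high on day 1. Ankrd1, a titin-binding ankyrin repeat protein of the sarcomere, had intensities of 3007 on day 1, 1078 on day 3, 676 on day 5 and 369 on day 7. Each day was below the one before it, and the difference was -1.85 (SE 0.64), or 3.60-fold lower on days 5 and 7. Xirp1, an actin-binding protein of myofibril repair, had intensities of 6668, 2704, 1882 and 1751 on the same 4 days, a difference of -1.23 (SE 0.49). Csrp3, known as muscle LIM protein and found at Z-discs, had 6741, 4773, 3503.5 and 2603, a difference of -0.91 (SE 0.25). In both genes day 1 was the highest array and day 7 the lowest. The actin crosslinker Flnc had 10409, 5541, 4393 and 4641, so that day 1 stood alone and the other 3 days were closer to each other (difference -0.75, SE 0.34). Ankrd2, a relative of Ankrd1, was lower by a log2 difference of -0.73 and Lmcd1, a LIM protein, by -0.62 (-0.19 without day 1).

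Of the 30 Z-disc and stretch responsive genes, all tested, 16 lay apart and lower (53.3%) and 2 apart and higher, with a median difference of -0.12. Without day 1 the differences were -1.11 for Ankrd1, -0.58 for Xirp1 and -0.30 for Flnc, and the median of the list was -0.07. Of 38 actin and focal adhesion genes, 22 lay apart and lower (57.9%) and 3 apart and higher, with a median of -0.13 (15 lower and 4 higher with equal array medians). Enah, which lengthens actin filaments, had intensities of 2089, 1089, 807 and 711 and a difference of -0.99 (SE 0.36), or -0.52 without day 1. The membrane linker Msn was at -0.37 and the laminin-binding integrin subunit Itga7 at -0.35. Of 9 tubulin genes tested, 4 lay apart and lower and 0 higher, led by Tubb6 at -0.94 (-0.47 without day 1), with a median of -0.14 (-0.06 without day 5). Hence the lower genes of this kind span the Z-disc, actin filaments, membrane attachment and microtubules.

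The promoter of Fhl1, which encodes a LIM protein of the sarcomere, is shown because Z-disc genes lay apart together and serum response factor, a regulator of muscle and cytoskeletal genes, binds CArG boxes. Sequences here and in the paragraphs on heat shock and mitochondria are RefSeq windows of GRCm38.p6, 250 bases before to 50 after a gene's start. They are written 5′ to 3′ along the gene with motif matches in capitals. Fhl1 (chrX:56779433-56779732, plus strand) holds its match from position -102 relative to the start. Its intensities were 16243, 17318, 15544 and 15544, a difference of -0.11 (SE 0.05), so the sides did not overlap although the step was small.
Fhl1: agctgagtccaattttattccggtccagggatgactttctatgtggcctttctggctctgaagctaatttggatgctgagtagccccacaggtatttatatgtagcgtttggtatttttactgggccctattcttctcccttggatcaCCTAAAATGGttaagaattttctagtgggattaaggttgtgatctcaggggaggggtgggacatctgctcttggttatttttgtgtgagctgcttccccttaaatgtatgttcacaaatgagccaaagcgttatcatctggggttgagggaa
A CArG box was found in 1.63% of all 32851 windows and in 5 of 31 windows of the Z-disc list (16.1%), searched on both strands. Those windows belong to 23 of the 30 genes, and 3 of the 23 held a match. Among the genes of the list that lay apart, only Fhl1 gave a window with a match to show. The share of windows therefore describes the list and not its lower genes. A match describes letters and is not evidence that a factor binds there.

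Heat shock genes were also highest on day 1. Hsp90aa1, the inducible cytosolic HSP90 chaperone, had intensities of 1969, 1136, 873 and 767 on days 1, 3, 5 and 7, a difference of -0.87 (SE 0.31). Hspa1a, the inducible HSP70 chaperone, had 1389, 666, 581 and 533 (-0.79, SE 0.40). Dnaja4, a co-chaperone of HSP70, had 3027, 1507, 1337 and 1337 (-0.68, SE 0.38). In all 3 genes day 1 was the highest array. Day 3 lay only a little above days 5 and 7 in Hspa1a and Dnaja4, and farther above them in Hsp90aa1, by 1.30-fold over day 5. Without day 1 the differences were -0.47 for Hsp90aa1, -0.26 for Hspa1a and -0.17 for Dnaja4. The co-chaperone Dnajb1 was at -0.73 (-0.24 without day 1) and Hsph1, an HSP110 exchange factor for HSP70, at -0.63 (-0.35). Dnajb1 was dim, with both later values (113.8 and 116.1) below the filter level of 130.1. Hspa1a has a near-identical copy, Hspa1b, and how far its probes also read that copy was not tested.

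Of 35 heat shock proteins and co-chaperones tested (36 on the array), 22 lay apart and lower (62.9%) and 2 apart and higher, with a median difference of -0.23. The median was -0.11 without day 1 and -0.35 without day 3. With equal array medians 18 of the 35 still lay apart and lower. Chaperones of the endoplasmic reticulum had a median of -0.15, with 8 of 25 apart and lower and 0 higher. Hsp90b1, which encodes GRP94, was at -0.45 and the disulfide isomerase Pdia4 at -0.37, but the median of that list was -0.0046 without day 1. The cytosolic TRiC chaperonin, which folds actin and tubulin, had 3 of 8 subunits apart and lower and 0 higher, with a median of -0.16 (-0.06 without day 1, -0.06 without day 7, -0.26 without day 3 and -0.27 without day 5).

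The promoters of Hspa1a and Dnaja4 are printed because heat shock factor binds inverted repeats of the form GAANNTTC, whose letters read the same on both strands. Of the heat shock genes that lay apart, these had the largest differences among those whose window holds the motif. Hspa1a (chr17:34972107-34972406, minus strand) has 1 match, from position -104. Dnaja4 (chr9:54699309-54699608, plus strand) has 2, the first from position -90.
Hspa1a: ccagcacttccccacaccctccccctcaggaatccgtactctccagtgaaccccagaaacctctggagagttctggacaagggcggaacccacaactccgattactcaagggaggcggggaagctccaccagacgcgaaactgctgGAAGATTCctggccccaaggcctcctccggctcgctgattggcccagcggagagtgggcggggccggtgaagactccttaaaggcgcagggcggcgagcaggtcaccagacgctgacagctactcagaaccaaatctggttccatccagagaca
Dnaja4: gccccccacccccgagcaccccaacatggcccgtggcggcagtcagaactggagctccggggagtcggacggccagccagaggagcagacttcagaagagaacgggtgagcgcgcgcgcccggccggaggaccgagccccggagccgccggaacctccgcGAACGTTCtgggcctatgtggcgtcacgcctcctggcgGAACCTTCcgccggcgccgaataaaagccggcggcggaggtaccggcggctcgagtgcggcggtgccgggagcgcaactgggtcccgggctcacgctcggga
The motif was present in 7.86% of the 32851 windows and in 13 of 40 windows of the heat shock list (32.5%). Windows were found for 30 of the 35 genes tested, and 12 of the 30 held the motif.

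Stress-induced and signalling genes followed several courses. Atf3, a stress-induced transcription factor, had intensities of 2704, 643, 545 and 495, so that day 1 stood apart from the other 3 days. Its difference of -1.34 (SE 0.78) was -0.31 without day 1. Otud1, a deubiquitinase, had 908, 424, 294 and 268 (-1.14, SE 0.42, and -0.59 without day 1). Runx1, a transcription factor also known from denervated muscle, had 913, 424, 309.5 and 333 (-0.96, SE 0.42, and -0.40 without day 1). Srxn1, an antioxidant enzyme that reactivates peroxiredoxins, had 1045, 431, 399 and 383 (-0.78, SE 0.48, and -0.14 without day 1). In Atf3, Runx1 and Srxn1 most of the difference went when day 1 was left out, and in Otud1 about as much remained as went.

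The metallothioneins differed from that course. Mt2, a metal-binding protein, had intensities of 6819 on day 1, 7283 on day 3, 3761 on day 5 and 3391 on day 7. Both early arrays were close to each other and both later arrays were close to each other, with the lowest early value 1.81-fold above the highest later value. The difference was -0.98 (SE 0.08), with an unadjusted limma p of 4.64e-04 and an adjusted p of 0.746. It lay between -1.06 and -0.91 with any 1 array left out. No other gene that lay apart and lower had so wide a gap between its sides. Its neighbour in function, Mt1, had 1225, 1179, 828 and 744 (-0.61, SE 0.08). Of 21 redox and NRF2 target genes, 10 lay apart and lower (47.6%) and 1 higher, with a median of -0.23, among them Nqo1, a quinone reductase, at -0.43. That median was -0.05 without day 1, -0.10 without day 5 and -0.34 without day 3. With equal array medians 8 lay apart and lower (38.1%, against 11.5% of all genes) and 6 higher (28.6%, against 28.8%).

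Genes that serve the making of ribosomes and the traffic through nuclear pores were lower on days 5 and 7 by small amounts. Of 39 nuclear transport factors, 21 lay apart and lower (53.8%) and 0 higher, all 39 differences were below 0, and the median was -0.16. Xpo1, the main export receptor for proteins, had intensities of 768, 621, 526 and 479 (-0.46, SE 0.13), stepping down at each day. The importin Kpnb1 and the pore protein Nup88 were both at -0.26. Of 47 ribosome biogenesis factors, 22 lay apart and lower (46.8%) and 0 higher, with a median of -0.20. Ddx21, a nucleolar RNA helicase, had 849.8, 549, 500.1 and 482 (-0.48), and Nop58, a core protein of the snoRNA particles that modify rRNA, had 279.9, 175, 171 and 148 (-0.47). In both, day 3 was already near days 5 and 7. Without day 1 the median was -0.04 for nuclear transport and -0.06 for ribosome biogenesis, and without day 3 it was -0.26 and -0.32.

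Other lists of protein synthesis and turnover had medians nearer to that of the genes as a whole. Among 40 translation factors 9 lay apart and lower (22.5%) and 0 higher, with a median of -0.11 (-0.0089 without day 1, -0.24 without day 3). Among 38 proteasome subunits 13 lay apart and lower (34.2%, against 19% of all genes) and 4 higher (10.5%, against 11.5%). With equal array medians 8 were lower (21.1%, against 11.5% of all genes) and 10 higher (26.3%, against 28.8%). After quantile normalization 12 were lower (31.6%, against 15.9%) and 9 higher (23.7%, against 21.0%). Their median of -0.09 was 0.01 without day 1 and -0.18 without day 3. Psmd11, a lid subunit, had 2473, 1443, 1212 and 1372, with day 1 alone high. Cytosolic ribosomal proteins had 5 of 53 apart and lower (9.43%) and 1 higher, fewer of each than the share of all genes. Genes of division were mostly too dim to test, since 16 of 41 mitosis and DNA replication genes passed the filter. Of the 16, 7 lay apart and lower and 1 higher, with a median of -0.13. Rrm2, a subunit of the enzyme that makes DNA precursors, had 173, 158, 112 and 108 (-0.59, SE 0.06), with no overlap and little spread within a side. Both later values of Rrm2 lay below the filter level of 130.1, so it passed the filter through its early values. The precision of such dim values is unknown, and the small spread is no evidence of it. Mcm4, a helicase subunit of DNA replication, was at -0.46 and the polymerase clamp Pcna at -0.40. Both later values of Mcm4 also lay below the filter level.

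Markers of macrophages were lower on day 7 above all. Cd68, a lysosomal glycoprotein of macrophages, had intensities of 1345.5 on day 1, 1068 on day 3, 714 on day 5 and 306 on day 7. The values were lower at each later day, the sides did not overlap, and the difference was -1.36 (SE 0.48), or -0.75 without day 7. Of 23 macrophage markers on the array 15 passed the filter, and 11 of them lay apart and lower (73.3%) and 0 higher, with a median of -0.33. With equal array medians 7 lay apart and lower, and without day 7 the median was -0.16. The galectin Lgals3 was at -0.53, the mannose receptor Mrc1 at -0.50 and the signalling adaptor Tyrobp at -0.40. The summed intensity of the 23 markers was 9445 to 9573.5 on days 1 and 3 and 6515 to 8194 on days 5 and 7. The markers Aif1, Cd14, Cd163, Cd84, Fcgr1, Itgam, Ms4a7 and Msr1 were below the filter. In whole muscle, fewer cells of a type and less RNA per cell cannot be told apart.

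Neutrophil markers were highest on day 3 of the 4 days. Ngp, a granule protein of immature neutrophils, had 577, 1081, 369 and 401 (-1.04, SE 0.34, and -0.59 without day 3), with both early arrays above both later ones. S100a8, a calcium-binding protein of neutrophils, had 260.5, 292, 136 and 189.8 (-0.78, SE 0.19). Of 17 markers 11 passed the filter, 5 of them lay apart and lower (45.5%) and 0 higher (3 and 1 with equal array medians), with a median of -0.38. That median was -0.23 without day 3, -0.22 without day 5 and -0.61 without day 7. Their summed intensity was 3875 to 5094 on days 1 and 3 and 2786 to 3507 on days 5 and 7, and Csf3r, Cxcr2, Il1r2, Ly6g, Mmp8 and Prtn3 were below the filter. Ngp was at 2205 and S100a8 at 812 on day 10, above every array of the comparison. Serpinb1a, an inhibitor of neutrophil proteases, had 338, 368, 206 and 124 (-1.14, SE 0.28). The part of immune cells in the differences of other genes was not tested.

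The myeloid chemokines Ccl7 at -0.49 and Ccl2 at -0.39 lay apart and lower. Both later values of Ccl2 (129.1 each) were just below the filter level of 130.1. Of 19 chemokines and receptors tested 4 lay apart and lower (21.1%, near the 19% of all genes) and 0 higher, with a median of 0.0047. With equal array medians 4 lay apart and lower (21.1%, against 11.5% of all genes) and 5 higher (26.3%, against 28.8%). Of 16 endothelial markers 2 lay apart and lower and 0 higher, or 1 and 1 under either other scaling. Of 13 fibroblast and fibro-adipogenic progenitor markers 1 lay apart and lower and 2 higher, or 0 and 5 under either other scaling. Of 11 smooth muscle and pericyte markers 4 lay apart and lower and 0 higher, or 2 and 0. Of 4 erythroid markers tested 2 lay apart and lower and 0 higher, with a median of -0.21 (-0.08 without day 5 and -0.10 without day 3). Of 11 markers of T and NK cells and 7 of B cells, 1 each passed the filter. Lyve1, a hyaluronan receptor of lymphatic vessels and some macrophages, had 642, 523, 379 and 366 (-0.64, SE 0.12).

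Genes of slow fibres were highest on day 3. Myh7, the slow myosin heavy chain, had intensities of 389 on day 1, 776 on day 3, 314 on day 5 and 269.7 on day 7. Day 3 alone was high, although day 1 was also above both later days, and the difference was -0.92 (SE 0.38). Tnnc1, the slow and cardiac troponin C, had 383, 678, 366 and 280.1 (-0.67, SE 0.34), with day 1 only 1.05-fold above day 5. The slow troponin I gene Tnni1 was at -0.62 (SE 0.25). Without day 3 the differences were -0.42, -0.26 and -0.37 for Myh7, Tnnc1 and Tnni1, that of Tnni1 was -0.39 without day 7, and without day 1 that of Myh7 was -1.41 and that of Tnnc1 -1.08. Of 13 slow fibre genes 5 lay apart and lower (38.5%) and 0 higher. Their median was -0.09, at -0.37 without day 1, -0.27 without day 5, -0.05 without day 7 and 0.03 without day 3.

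Regulators of muscle precursor cells and of the nerve-muscle junction also included genes that lay apart. Of 16 satellite cell and myogenic regulators tested (20 on the array), 9 lay apart and lower (56.2%) and 1 higher, with a median of -0.17. The median was -0.08 without day 1 and -0.07 without day 5, and with equal array medians 6 lay apart and lower and 3 higher. Myod1, a transcription factor of activated precursor cells, had 789.5, 569, 449 and 548 (-0.43, SE 0.21), with day 3 only 1.04-fold above day 7. Among 17 denervation and endplate genes 6 were apart and lower and 2 higher, with a median of -0.25 (-0.02 without day 1, -0.12 without day 5 and -0.39 without day 3). Chrna1, the acetylcholine receptor alpha subunit, had 878, 478, 466 and 434 (-0.53, SE 0.33). Chrne, the adult epsilon subunit, had 418, 422, 542 and 612 (0.46, SE 0.08), the opposite direction, and Ache, which breaks down acetylcholine, was at 0.36.

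**Figure D2:**
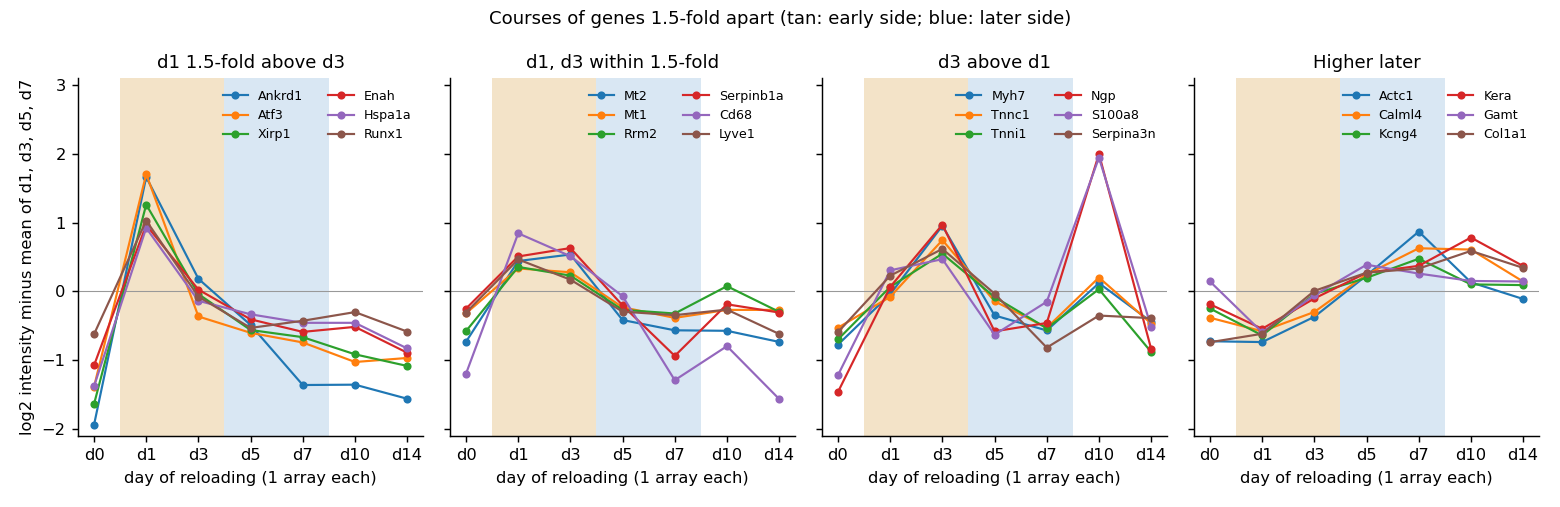
The 4 panels plot log2 intensity minus the gene's own mean over days 1, 3, 5 and 7 against the day, 1 array a day and days evenly spaced, with the early side shaded tan and the later side blue. Genes such as Ankrd1 and Atf3 peak on day 1, Mt2 and Cd68 have days 1 and 3 within 1.5-fold, Myh7 and Ngp are higher on day 3 than on day 1, and Actc1 and Col1a1 are higher on the later side.

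Among the 10 genes that were 1.5-fold higher on days 5 and 7, Actc1 led. Actc1, the cardiac alpha actin that skeletal muscle also makes while it develops or regenerates, had intensities of 1228 on day 1, 1585 on day 3, 2404 on day 5 and 3741.5 on day 7. Each day was above the one before it, and the difference was 1.10 (SE 0.28), 2.15-fold. Calml4, a calmodulin-like protein, had 114, 139, 203 and 264 (0.88, SE 0.18). BC048679, a gene with a clone name, had the widest gap, its lowest later value being 1.57-fold above its highest early value (116.5, 113, 183 and 247). Both early values of BC048679 lay below the filter level of 130.1, so it passed the filter through its later values. Day 1 of Calml4 (114) was below that level too. The precision of such dim values, and so of this gap, is unknown. Gamt, which makes creatine, had 592, 860.3, 1171 and 1071 (0.65, SE 0.21, and 0.38 without day 1). The glucose-6-phosphate transporter Slc37a4 was at 0.60 and the potassium channel subunit Kcng4 at 0.68. Odf3l2 at 0.68 and the kinase gene Sbk2 at 0.60 completed the set with Kera and Col1a1. Without day 1 these stood at 0.39 for Slc37a4, 0.37 for Kcng4, 0.39 for Odf3l2 and 0.29 for Sbk2, and without day 7 Sbk2 stood at 0.36.

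Collagen and tendon genes were among the higher genes. Col1a1, a chain of type I collagen, had intensities of 721, 1111, 1335 and 1392, so that day 1 was the low array and day 3 was nearer to the later side (0.61, SE 0.24, and 0.29 without day 1). Kera, a keratan sulfate proteoglycan found in tendon, had 225, 305, 395 and 424 (0.64, SE 0.17, and 0.42 without day 1). Of 12 tendon markers 11 passed the filter, 7 of them lay apart and higher (63.6%) and 0 lower, with a median of 0.19 (0.10 without day 1). Tnmd, a membrane protein of tendon cells, was just under 1.5-fold at 0.58, and the matrix protein Chad was at 0.32. The summed intensity of the 12 tendon markers was 10960.1 to 12755 on days 1 and 3 and 13120.4 to 13399.8 on days 5 and 7, and Ptx4 was below the filter. How much tendon each pool held was not tested. The wider list of fibrillar collagens and their processing enzymes had 9 of 29 apart and higher and 5 lower, with a median of 0.02. Col1a2, the partner chain of Col1a1, was at 0.42, while Lox, which crosslinks collagen, was at -0.43.

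Mitochondrial genes were higher on days 5 and 7 in small, shared steps. Of 35 subunits of respiratory complex I, which takes electrons from NADH, all tested, 30 lay apart and higher (85.7%) and 0 lower, and all 35 differences were above 0. The median was 0.20, and it lay between 0.15 and 0.27 with any 1 array left out. Ndufa6, an accessory subunit picked from those that lay apart, had intensities of 1344.5, 1552, 1967 and 1783 (0.37, SE 0.11). Of 41 subunits of complexes II to V, 32 lay apart and higher (78%) and 0 lower, with a median of 0.19 (0.12 without day 1). Atp5o, a stalk subunit of ATP synthase, had 2331, 2660.0, 3232 and 3338 (0.40, SE 0.09), and Cox4i1, of cytochrome oxidase, was at 0.33. At an unadjusted limma p under 0.05 stood 10 of the 35 and 13 of the 41 genes, against 3.88% of all genes tested. None of these 10 and 13 genes had an adjusted p under 0.746.

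Enzymes that feed the respiratory chain showed the same direction. Of 23 citric acid cycle genes 15 lay apart and higher (65.2%) and 0 lower, with a median of 0.14. Idh2, the mitochondrial NADP-dependent isocitrate dehydrogenase, had 1651, 1894, 2105 and 2435.5 (0.36, SE 0.12). Of 22 genes of branched-chain amino acid breakdown 15 lay apart and higher (68.2%) and 0 lower, with a median of 0.15 (0.22 without day 5). Echs1, an enoyl-CoA hydratase shared with fatty acid oxidation, had 846, 950.0, 1185 and 1192 (0.41, SE 0.08). Of 28 genes of fatty acid uptake and oxidation 17 lay apart and higher (60.7%) and 1 lower, with a median of 0.17 (0.10 without day 7). Fabp3, the muscle fatty acid binding protein, had 3529.9, 4268, 5593 and 5071 (0.46, SE 0.12), and the mitochondrial carrier Ucp3 was at 0.41. The genes named here were picked from members that lay apart, so their lack of overlap follows from that choice. The sides overlapped in 8 citric acid cycle genes, 7 of branched-chain breakdown and 10 of fatty acid uptake and oxidation. Mitochondrial ribosomal proteins had 24 of 75 apart and higher (32%, against 11.5% of all genes) and 2 lower, with a median of 0.08 that was 0.03 without day 5. With equal array medians 42 were higher (56%, against 28.8% of all genes) and 0 lower. After quantile normalization 40 were higher (53.3%, against 21.0%) and 1 lower. The list of PGC-1 and other mitochondrial regulators had 4 of 20 apart and higher (20%) and 3 lower (15%), with a median of -0.0049. Cytosolic glycolysis and glycogen genes had 6 of 22 apart and higher (27.3%, against 11.5% of all genes) and 3 lower, with a median of 0.0042. After quantile normalization 5 of them were higher (22.7%, against 21.0%) and 3 lower.

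The promoters of Sdhd, a membrane anchor of complex II, and Atp5g3, a ring subunit of ATP synthase, are shown because they alone held the motif TNAAGGTCA, bound by the estrogen-related receptors that regulate mitochondrial genes. Sdhd had intensities of 1746, 2228, 2437 and 2413 (0.30, SE 0.14). Atp5g3 had 4719, 5765, 5936 and 6604 (0.26, SE 0.13). In both, day 1 was the lowest array and day 3 lay just under the later side. The match starts at position 36 in Sdhd (chr9:50603800-50604099, minus strand) and at -52 in Atp5g3 (chr2:73911277-73911576, minus strand), in both as the reverse complement.
Sdhd: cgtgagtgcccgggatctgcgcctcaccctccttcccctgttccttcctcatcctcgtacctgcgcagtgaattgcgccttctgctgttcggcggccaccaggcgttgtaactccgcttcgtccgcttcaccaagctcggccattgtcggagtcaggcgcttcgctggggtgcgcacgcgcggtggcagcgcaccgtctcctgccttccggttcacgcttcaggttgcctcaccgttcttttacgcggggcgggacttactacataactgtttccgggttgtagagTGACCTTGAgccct
Atp5g3: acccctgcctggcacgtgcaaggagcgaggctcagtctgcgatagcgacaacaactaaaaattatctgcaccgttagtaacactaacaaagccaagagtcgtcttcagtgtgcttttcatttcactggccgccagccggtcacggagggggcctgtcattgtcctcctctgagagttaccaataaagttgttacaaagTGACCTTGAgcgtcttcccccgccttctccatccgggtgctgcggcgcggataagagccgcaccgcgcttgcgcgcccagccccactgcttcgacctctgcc
Both strands were searched. The motif was in 2 of 93 windows of the respiratory and citric acid cycle genes (2.15%), against 1.28% of all windows, and windows were found for 82 of 95 genes. This is a description of letters in these windows, and a match is not evidence that a receptor binds there.

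**Figure D3:**
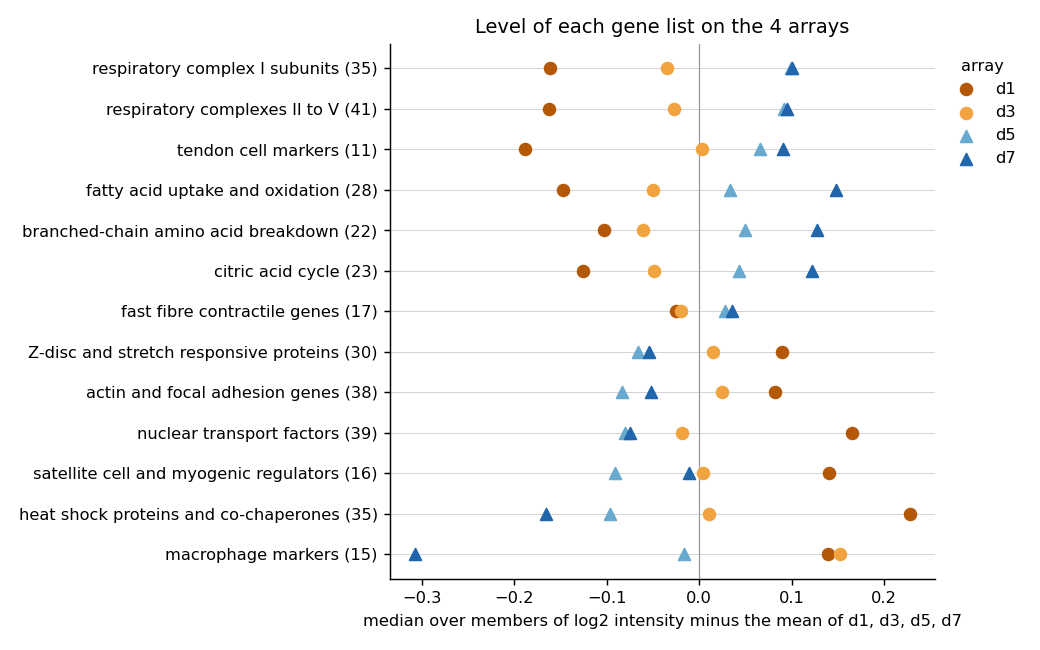
Each row is a gene list of at least 8 tested genes of which at least 50% lay apart one way (number tested in brackets), and each symbol is the median over its members of log2 intensity minus the gene's mean over days 1, 3, 5 and 7, for 1 array. The mitochondrial lists have day 1 lowest and days 5 and 7 highest, heat shock genes have the reverse order, and macrophage markers have days 1 and 3 together and day 7 lowest at -0.31.

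Contractile genes of fast fibres differed by small amounts, and the sides of several myosin and atrophy genes overlapped. Of 17 fast fibre genes 9 lay apart and higher (52.9%) and 0 lower, but with a median of only 0.07, and after quantile normalization 5 lay apart. Myh1, the type IIx myosin, was at 0.07, and the regulatory light chain Mylpf at 0.17. Myh2, the type IIa myosin, had 8223, 11865, 10885 and 11270.0, so its sides overlapped because day 3 was the highest array, and its difference of 0.17 was -0.10 without day 1 and 0.43 without day 3. Myh4, the type IIb myosin, had 14817, 14341, 14087 and 14658, also overlapping, with a difference of -0.02 that is within the shifts made by scaling. The atrophy ubiquitin ligase Fbxo32 had 2872.5, 2276, 1835 and 2495 and Trim63 had 1595, 1383, 1303 and 1464. In both, day 5 was the lowest array and the sides overlapped. The difference of Fbxo32 was -0.26, and -0.04 without day 5 and -0.48 without day 7. The creatine kinase Ckm overlapped too.

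A further 5 genes differed by 1.5-fold between the means of the sides but overlapped (0.0437%). On the log2 scale Cxcl13, a B cell chemokine, had levels of 8.15, 8.08, 9.87 and 7.58, with day 5 alone high. Gadd45a, a growth arrest gene, had log2 levels of 9.15, 7.68, 7.70 and 7.65, with day 1 alone high. Dusp18, Tnfrsf12a and the neutrophil gene Lcn2 were the others. At the threshold itself, Rrm2, Serpinb8 and Tmem100 lay just inside with -0.59 each, and Tnmd (0.58), Ctse (-0.58) and Frzb (0.58) just outside.

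The differences of the 46 lower genes lay mostly between days 1 and 5. A difference between the sides is the sum of the step from day 3 to day 5 and of the steps from day 1 to day 3 and from day 5 to day 7, the last 2 counted at 0.5 of their size. Over the 46 genes the medians of these parts were -0.40 (day 1 to day 3), -0.37 (day 3 to day 5) and -0.06 (day 5 to day 7). The step from day 1 to day 3 was the largest part in 25 genes, that from day 3 to day 5 in 19, and that from day 5 to day 7 in 2, one of which is Cd68. In 26 of the 46 day 1 was at least 1.5-fold above day 3, in 17 both were within 1.5-fold, and in Myh7, Ngp and Tnnc1 day 3 was at least 1.5-fold above day 1. Over the 10 higher genes the parts were 0.25, 0.39 and 0.16, and day 3 was above day 1 in 9 of them.

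The days within the early side differed more than days 3 and 5 did. Between days 1 and 3, 123 genes differed by at least 1.5-fold, against 30 between days 3 and 5 and 37 between days 5 and 7. Across the sides, 199 genes differed between days 1 and 5, 261 between days 1 and 7 and 56 between days 3 and 7. With 1 array left out a side holds a single array, and the rule for lying apart is looser. The count of 1.5-fold genes without day 1 was 26 lower and 3 higher, without day 3 157 and 43, without day 5 70 and 18, and without day 7 46 and 14. Of the 46 lower genes 13 were still 1.5-fold lower without day 1, 43 without day 3, 44 without day 5 and 36 without day 7. Of the 10 higher genes 3, 10, 9 and 6 were still 1.5-fold higher. The difference was over 1.5 times smaller without day 1 in 29 of the 46 lower genes, and over 1.5 times larger without day 3 in 21. The rule that chose the genes fixes their sign when 1 array is left out.

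**Figure D4:**
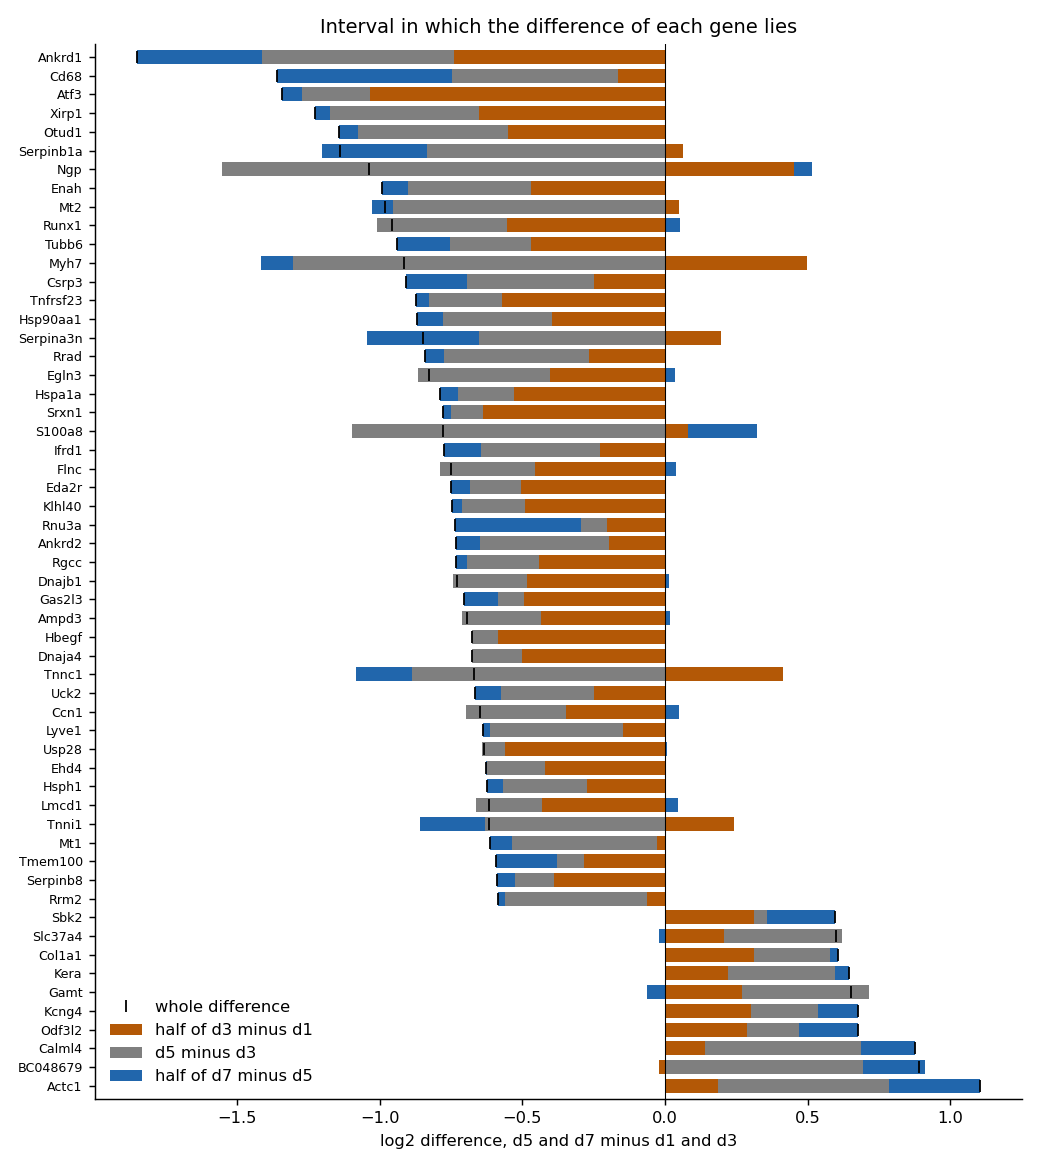
Each bar is 1 of the 56 genes that were 1.5-fold apart, split into the parts of its log2 difference from day 1 to day 3, day 3 to day 5 and day 5 to day 7, with a black tick at the whole difference. The part from day 1 to day 3 is the largest in 25 of the 46 lower genes, and in 8 of the 46, Myh7 and Ngp among them, it points the other way.

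The 3 arrays outside the comparison place these genes in the whole course. Relative to its mean over days 1, 3, 5 and 7, the median level of the 46 lower genes was -0.74 at the end of suspension, 0.76 on day 1, 0.02 on day 3, -0.34 on day 5, -0.45 on day 7, -0.34 on day 10 and -0.52 on day 14. This median course was low before reloading, highest on day 1 and near its later level from day 5 on, and single genes departed from it, such as Ngp and S100a8 with their high day 10 and Myh7 with its highest array on day 3. The 10 higher genes had median levels of -0.22, -0.60, -0.07, 0.24, 0.51, 0.42 and 0.29 on the same 7 days, with day 1 the lowest and day 7 the highest. Day 14 minus day 0, which shares no array with the comparison, had a median of 0.21 over the 46 genes (36 above 0), 0.48 over the 10 genes (8 above 0) and 0.08 over all genes tested (8217 of 11430 above 0), so the counts above 0 were near that of all genes. Csrp3 was still above the end of suspension on day 14 by 1.11 and Col1a1 by 1.08, whereas Mt2 stood at 3021 on day 0 and 3016 on day 14.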

How the data were processed

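RNA of the left plantaris was hybridised to Affymetrix Mouse Gene 1.0 ST arrays, 1 per day, per the series' design text. The deposited data are linear intensities that the authors had normalized between arrays. The submitters' processing notes name Partek without a version. Background correction, summarization and normalization method are not given in the sources used. Of 35556 probe sets, 21789 carry a single gene symbol in the platform annotation, 1621 several and 12146 none. They gave 19938 genes, and for the 999 genes with more than 1 probe set the brightest on average was used. Log2 was taken with a pseudocount of 0.

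Means of days 5 and 7 and of days 1 and 3 were compared over 4 arrays with limma 3.58.1 in R 4.3.3 (intensity trend, two-sided, Benjamini-Hochberg at 0.05), and the scripts were tested on simulated data. The p-values measure only the spread between days of a side, since no day has a second array, and so few arrays limit the precision. The naming rule took the 15 largest differences each way among genes that lay apart, leaving out predicted genes, clones, receptors and small RNAs. Not every gene that the rule took is given in the text. Up to 4 genes of each list were also taken, those with the largest differences among its members that lay apart. Such genes are the extremes of their lists and not typical members. For every gene picked from those that lay apart, the lack of overlap follows from the choice. This includes the genes whose promoters are shown. The widest gap each way with clones and the like left out (Actc1 and Mt2) was taken too. So were Myh1, Myh2, Myh4, Myh7, Fbxo32, Trim63, Col1a1, Cd68 and Ckm. Other genes past 1.5-fold, the 5 that overlapped and those next to the threshold were named after their values were seen. The members, lists and tests were chosen with earlier results of these data known, so no list is independent support for its own direction.

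The alternatives were other filters on low values (none, or percentile 75), other scalings (quantile normalization, or equal medians of the arrays), averaging a gene's probe sets, a pseudocount of 16, other fold thresholds, other limma settings and leaving out each array. Promoter windows came from RefSeq. Scanner files were not used here.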

Additional observations from a re-analysis of the deposited data

Results flagged for a closer look

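Probe sets with no gene symbol or with several took no part in the comparison of genes. Of these, 5223 passed the same filter on low values, and 30 lay apart by at least 1.5-fold, 24 lower and 6 higher on days 5 and 7. These counts were near the shares of the genes tested, where 46 of 11430 were lower (0.402%) and 10 higher (0.0875%). The 30 probe sets lie outside the main measurement, since no single gene is named for them, and they were not compared with the array of day 0.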

How the results depend on the processing

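No paired analysis was possible because each day is 1 array of pooled RNA and the labels link no animals across days. limma called 0 genes in every setting tried. Genes apart by 1.5-fold numbered 6 higher with the filter at percentile 75, and 16 higher with equal array medians. At a log2 threshold of 0.32 in place of 0.58, 85 were higher and 212 lower, and at 2-fold 1 and 7. Genes apart at any size numbered 2300 higher with no filter, 770 higher and 1325 lower at percentile 75, 2405 higher after quantile normalization, and 3291 higher and 1309 lower with equal array medians. With 1 array left out, which loosens the rule for lying apart, they ranged from 2286 to 3683 higher and from 3150 to 5182 lower, and those apart by 1.5-fold from 3 to 43 higher and from 26 to 157 lower.

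Of 209 named genes, 204 kept their sign in every setting in which they were tested. Most of the 209 were named from genes that lay apart, and for those leaving out 1 array cannot change the sign. The count is therefore no support for their direction. Among genes that lay apart the reversals were Dcn at 4.89e-04 after quantile normalization and 0.024 with equal array medians, Ngfr at 0.0039 and Psmb8 at 0.00068 with equal array medians. Myh2 and Myh4, whose sides overlapped, also took both signs, Myh2 from -0.10 to 0.43 and Myh4 from -0.049 to 0.0080 with 1 array left out, and Myh4 stood at 0.028 with equal array medians. Over all lists and settings 108 medians moved by more than the spread between days of a side and 556 did not. The following are those of lists with at least 50% of their genes apart one way. With the mean over members, the Z-disc list stood at -0.25 and fast fibre genes at 0.058. With no filter fast fibre genes stood at 0.063. After quantile normalization actin genes stood at -0.089 and fast fibre genes at 0.079. With equal array medians the Z-disc list stood at -0.071, actin genes at -0.076, branched-chain breakdown at 0.20 and fast fibre genes at 0.12. With 1 array left out, medians ranged from -0.15 to -0.066 (Z-disc), -0.12 to -0.085 (actin), -0.35 to -0.11 (heat shock), -0.26 to -0.042 (nuclear transport), 0.15 to 0.27 (complex I), 0.12 to 0.26 (complexes II to V), 0.13 to 0.22 (branched-chain), 0.051 to 0.072 (fast fibre), -0.23 to -0.073 (satellite cell) and -0.47 to -0.16 (macrophage). The cause of these shifts was not tested. Detection above background was not measured, so dim genes have unknown precision.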

Other observations

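Several gene groups had members on either side. Gadd45b, a growth arrest gene, was at 0.40 and Ccng1 at 0.12, while Btg2 was at -0.18. Among glycolysis and glycogen genes, Gbe1, the glycogen branching enzyme, had intensities of 2409, 1701, 1443.5 and 1544 on days 1, 3, 5 and 7 (-0.44), and Gpd1, which makes glycerol phosphate, had 3940.3, 4284.5, 5233 and 5733.5 (0.41). Smox, which oxidises spermine, had 3184, 3115, 3847.5 and 4803 (0.45), and Azin1, the antizyme inhibitor, had 846, 677, 620.4 and 571 (-0.35). Chac1, which degrades glutathione, was at 0.39, whereas the one-carbon enzyme Mthfd2 of the same list was at -0.26. In none of these lists did 50% of the genes lie apart in 1 direction.

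Identical values recur between arrays. Of the 11430 genes, 6260 (54.8%) held the same value on at least 2 of the 7 arrays, and in 98.0% of those genes the shared value was the median of the 7. In 2596 genes (22.7%) a value was shared across the sides, and such a gene cannot lie apart. The shares of genes with identical values ran from 3.94% of genes (days 0 and 10) to 12.3% (days 3 and 14), where the share of values a single step apart ran from 0.157% to 0.429%. How the repeated values arose was not tested.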
